A study of Mus musculus with 74 samples.

Results

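Nascent RNA, the RNA still being made on the gene, was profiled in quadriceps muscle treated with FX1 and in quadriceps treated with its solvent DMSO. The experiment holds 10 of the 74 samples of the series, 5 libraries with FX1 and 5 with DMSO, and all 10 come from wild-type C57BL/6 mice. They were chosen by their labels and by the column names of the nascent RNA table, with no measured value used. The labels give no dose, time, route or age and do not say whether the libraries of a group come from separate animals, so the p-values measure the spread between these libraries. In the same series, 5 AEC-Esr Cre (+):Bcl6 fl/fl knockouts and 4 Cre-negative Bcl6 fl/fl mice, all given tamoxifen, and 4 AEC-Esr Cre (+):Bcl6 fl/fl mice given oil supplied poly(A) RNA, and BCL6 was mapped by chromatin immunoprecipitation in 1 wild-type quadriceps library. The labels do not say in which cells this Cre is active.

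BCL6 is a zinc-finger transcription factor that represses its target genes. Its BTB domain forms dimers with a groove that takes up corepressors such as NCOR1 and BCOR, and FX1 is a small molecule that occupies this groove. BCL6 is best known for holding B cells in the germinal centre, and in liver it counteracts gene activation by the STAT5 factor downstream of growth hormone. Because nascent RNA has had little time to be degraded, its level follows transcription more closely than the level of poly(A) RNA does.

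The table gives log2 values for 24940 genes, of which 13039 had a mean of at least 5 over the 10 libraries and were tested. The libraries held 13.9 M to 26.4 M tags with FX1 and 17.2 M to 32.7 M tags with DMSO, and FX1 replicates 1, 2 and 3 held fewer than any DMSO library. FX1 replicate 3 stood apart: across genes it correlated with the other FX1 libraries at r = 0.946 to 0.971 and with the DMSO libraries at r = 0.952 to 0.974. The spread was wider with FX1, with a median SD per gene of 0.278 against 0.164 with DMSO, and was larger with FX1 for 78.9% of genes. All of the muscle-defining markers examined, 15 of 15, were in the tested set, among them Acta1, Ckm, Ttn and the fast myosins Myh1, Myh2 and Myh4.

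With FX1, 1619 genes were raised and 1459 were lowered at a Benjamini-Hochberg adjusted p below 0.05 in limma, which is 12.4% and 11.2% of the genes tested. The lowest adjusted p belonged to Bcl2l1, which encodes the survival protein BCL-XL and is a known BCL6 target in B cells. Its log2 values were 11.78, 11.81, 11.61, 11.52 and 11.78 with FX1, against 9.85, 9.89, 9.89, 9.89 and 10.11 with DMSO, with no overlap (log2 change 1.77, SE 0.10, adjusted p = 9.02e-06). The 5 FX1 libraries lay close together and far above the DMSO libraries, and in knockout muscle the gene did not pass, with log2 changes of -0.01 against Cre-negative muscle (adjusted p = 0.889) and -0.02 against oil (adjusted p = 0.892). Median changes were 0.70 among raised and -0.65 among lowered genes, and 398 raised and 290 lowered genes changed by more than 1 on the log2 scale, that is, more than 2-fold. In 2351 genes (18.0%) the FX1 and DMSO libraries did not overlap. The authors' deposited table called 2184 raised and 1577 lowered among the same genes, and 1617 and 1432 of these were also called here. Among the 3078 genes called here, the fold change in the authors' deposited table was the larger in size for 3053, for Bcl2l1 2.35, so changes on the log2 scale used here are smaller than in that table. The tag counts of Bcl2l1, Errfi1, Tpi1, Nr1d1, Dbp, Ddit3, Hspd1, Tiparp, Rpl32, Ckm, Fer and Fez2 are uncertain, since each overlaps a gene on the opposite strand and the strand setting is not given in the sources used here. Without FX1 replicate 3, 2257 genes were raised and 2051 lowered, and 1571 and 1408 of the genes called with all libraries remained.

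**Figure D1:**
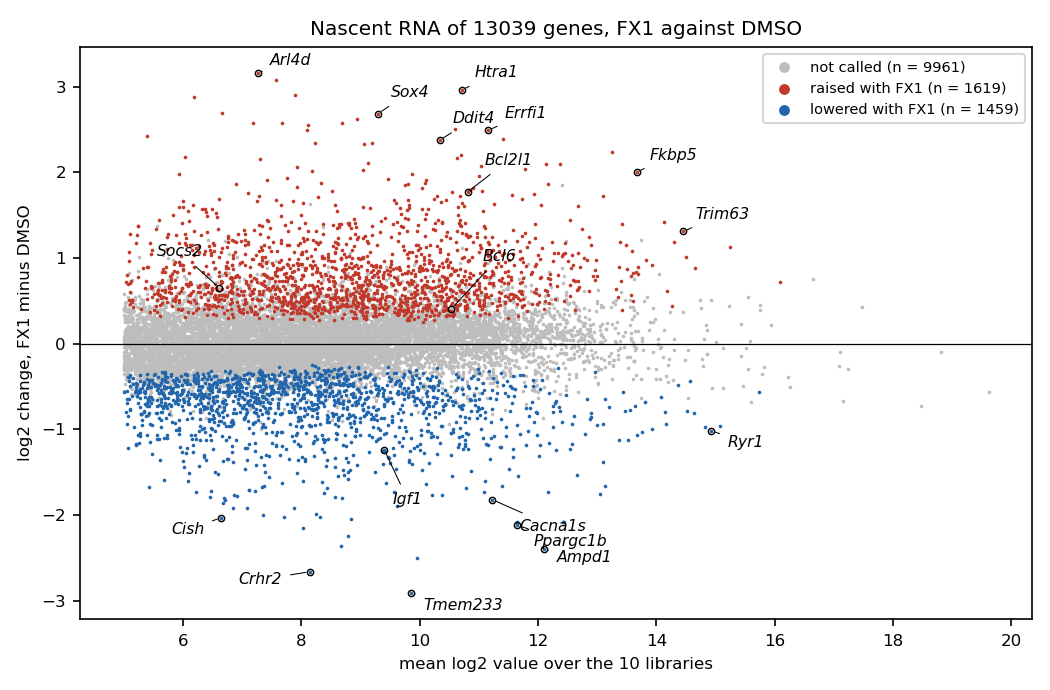
Each point is 1 of 13039 genes, with its mean log2 value over the 10 libraries on the x axis and the log2 change, FX1 minus DMSO, on the y axis. Raised genes (1619) are red, lowered genes (1459) blue, and circled genes are named in the text. The changes spread about as far upward, to 3.16 for Arl4d, as downward, to -2.91 for Tmem233.

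The 10 largest rises with non-overlapping groups were in Arl4d, Adamtsl2, Htra1, Maff, Sox4, Nr4a3, Slc10a6, Junb, Lcn2 and Agt. Arl4d, a small GTPase of the ARF family, had log2 values of 10.13, 9.69, 7.86, 8.06 and 8.49 with FX1, against 5.67, 5.83, 5.69, 5.52 and 5.72 with DMSO (log2 change 3.16, SE 0.38, adjusted p = 0.000319). Maff, a small MAF leucine-zipper factor, had values of 11.30, 10.99, 7.62, 7.97 and 8.87 with FX1, against 6.12, 6.70, 6.34, 6.53 and 6.52 with DMSO (log2 change 2.91, SE 0.64, adjusted p = 0.00747). In both genes FX1 replicates 1 and 2 were far above the other FX1 libraries, and replicate 3 was the lowest of them. The same order held for the orphan nuclear receptor gene Nr4a3, with 11.92, 12.004, 8.23, 9.05 and 10.02 with FX1, against 7.23, 7.77, 7.83, 7.15 and 8.16 with DMSO (log2 change 2.62, SE 0.65, adjusted p = 0.0137), and for the AP-1 subunit gene Junb, with 11.23, 10.45, 7.08, 7.40 and 8.65 with FX1, against 6.38, 6.87, 6.43, 5.79 and 6.46 with DMSO (log2 change 2.58, SE 0.69, adjusted p = 0.0206). In Nr4a3 and Junb the lowest FX1 library was only just above the highest DMSO library. Sox4, an HMG-box transcription factor, was even across FX1 libraries, with 10.81, 10.32, 11.11, 10.56 and 10.39 with FX1, against 8.53, 7.79, 8.35, 6.85 and 8.25 with DMSO (log2 change 2.68, SE 0.29, adjusted p = 0.000159). Lcn2, a secreted protein that binds iron carriers, was likewise high in all FX1 libraries, with 8.33, 9.27, 8.01, 8.02 and 8.68 with FX1, against 5.88, 6.36, 6.09, 4.98 and 6.16 with DMSO (log2 change 2.57, SE 0.29, adjusted p = 0.000214). The secreted protease gene Htra1, the matrix glycoprotein gene Adamtsl2, the sulfated steroid transporter gene Slc10a6 and the angiotensinogen gene Agt changed by 2.96, 3.08, 2.58 and 2.56 on the log2 scale. In knockout muscle Htra1 was lower, with log2 changes of -0.10 against Cre-negative muscle (adjusted p = 0.0338) and -0.12 against oil (adjusted p = 0.00999). There Lcn2 was not tested and the other 8 did not pass.

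The largest falls were in Tmem233, Crhr2, H60b, Ampd1, Sec14l5, Tekt1, Gm36173, Ppargc1b, Ky and Raet1b. Tmem233, which encodes a membrane protein, had log2 values of 7.95, 8.11, 9.19, 8.44 and 8.30 with FX1, against 11.61, 10.94, 11.18, 11.72 and 11.12 with DMSO (log2 change -2.91, SE 0.23, adjusted p = 4.34e-05). Crhr2, the receptor for urocortins, had 6.44, 6.44, 7.43, 7.09 and 6.64 with FX1, against 9.53, 9.40, 9.15, 9.95 and 9.33 with DMSO (log2 change -2.66, SE 0.21, adjusted p = 4.34e-05). In both genes all FX1 libraries lay below all DMSO libraries by a wide margin, and FX1 replicate 3 was nearest to DMSO. Ppargc1b encodes PGC-1β, a coactivator of mitochondrial genes, and stood at 10.71, 10.59, 10.86, 10.70 and 10.03 with FX1, against 12.75, 12.69, 12.63, 12.94 and 12.49 with DMSO (log2 change -2.12, SE 0.16, adjusted p = 4.12e-05). Its FX1 libraries lay close together. Ampd1, the muscle AMP deaminase of the purine nucleotide cycle, had 9.98, 10.86, 12.32, 10.79 and 10.58 with FX1, against 13.33, 13.13, 13.03, 13.89 and 13.16 with DMSO (log2 change -2.40, SE 0.35, adjusted p = 0.000926), with FX1 replicate 3 well above the other FX1 libraries. Ky, which encodes a muscle cytoskeletal protein, had 11.59, 11.62, 9.68, 9.80 and 10.28 with FX1, against 12.55, 12.55, 12.64, 13.15 and 12.51 with DMSO (log2 change -2.09, SE 0.37, adjusted p = 0.00276), and here FX1 replicates 1 and 2 were nearest to DMSO. H60b and Raet1b, ligands of the natural killer receptor NKG2D, changed by -2.51 and -2.08, but the annotated span of H60b overlaps those of Raet1a, Raet1b and Raet1c on the same strand, so tags cannot be assigned to either with certainty. Sec14l5, the tektin gene Tekt1 and the predicted gene Gm36173 changed by -2.36, -2.24 and -2.15.

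**Figure D2:**
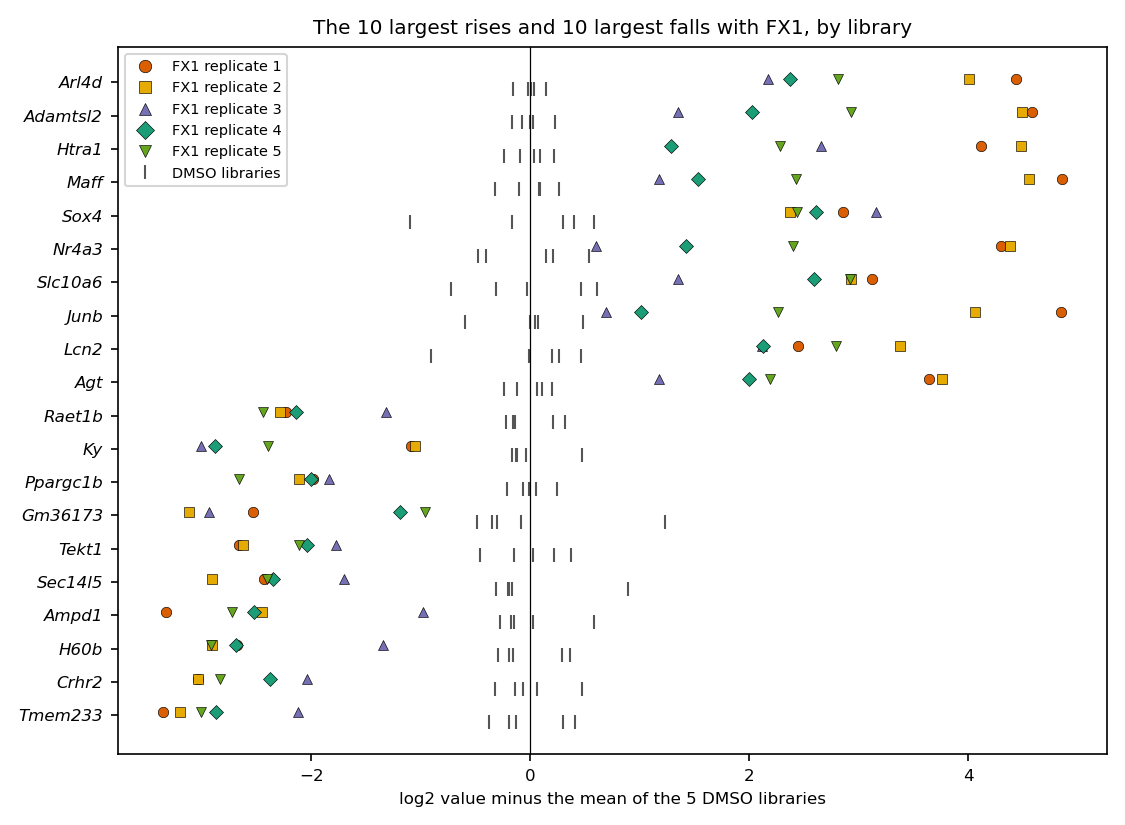
Rows are the 10 genes with the largest rises and the 10 with the largest falls among called genes with a mean of at least 7 and non-overlapping groups. The x axis gives each library's log2 value minus the mean of the 5 DMSO libraries, with coloured symbols for the 5 FX1 libraries and grey ticks for the 5 DMSO libraries. FX1 replicates 1 and 2 lie farthest right for Arl4d, Maff, Nr4a3 and Junb, and all FX1 libraries lie close together for Sox4 and Ppargc1b.

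Bcl6 itself (chr16:23965050-23988852, minus strand, mm10) had log2 values of 10.98, 11.28, 9.86, 10.70 and 10.88 with FX1, against 10.67, 10.36, 10.03, 10.38 and 10.24 with DMSO. FX1 replicates 1, 2, 4 and 5 were above all DMSO libraries and FX1 replicate 3 was below all of them, and the difference missed the threshold (log2 change 0.40, SE 0.23, adjusted p = 0.221). Without FX1 replicate 3 it passed (log2 change 0.62, adjusted p = 0.00812). Of 18 tested genes for BCL6, its corepressors and its paralogs, 4 were raised (22.2%) and 1 was lowered (5.56%). Among all genes tested 12.4% were raised and 11.2% lowered. The median change of the 18 was -0.01, against 0.02 for all genes tested. The raised members numbered 5 without FX1 replicate 3, 2 without FX1 replicate 1 or 2 or DMSO replicate 3, and 1 without DMSO replicate 1, 2 or 5. Among the raised were Hdac4, a class IIa histone deacetylase (log2 change 0.82, adjusted p = 0.029), Mta3, a subunit of the NuRD corepressor complex (log2 change 0.44, adjusted p = 0.0178), and Zbtb16, a BTB-domain repressor that is also a glucocorticoid target (log2 change 0.72, adjusted p = 0.0242). Ctbp1, another corepressor, fell (log2 change -0.27, adjusted p = 0.0453). Hdac4 no longer passed when any 1 of 6 of the 10 libraries was left out, and Ctbp1 when any 1 of 8 was. Ncor1 and Bcor changed by -0.09 and -0.09 without passing.

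BCL6 is known in liver to repress Socs2 and Cish, feedback inhibitors of growth hormone signalling. Socs2 (chr10:95411490-95416857, minus strand), which carries the highest score of the BCL6 peak list (1204.2, the authors' own value, centred 49 bp upstream of its start), had log2 values of 7.05, 7.35, 5.69, 7.26 and 7.34 with FX1, against 6.22, 6.33, 6.39, 6.06 and 6.43 with DMSO. The 4 FX1 libraries other than replicate 3 lay above every DMSO library and replicate 3 lay below every one, and Socs2 missed the threshold (log2 change 0.65, SE 0.28, adjusted p = 0.112) but passed without replicate 3 (log2 change 0.96, adjusted p = 0.000145). The authors' deposited table gives Socs2 a log2 fold change of 1.10 with an adjusted p of 0.0164. Cish (chr9:107296659-107302784, plus strand), with a peak of score 715.4 centred 25 bp downstream of its start, had 5.99, 5.72, 5.06, 5.41 and 5.96 with FX1, against 6.60, 7.64, 8.33, 7.68 and 8.05 with DMSO (log2 change -2.03, SE 0.29, adjusted p = 0.000843). All FX1 libraries were below all DMSO libraries, including replicate 3, which was the lowest. Socs3 changed by 0.37 without passing, and Socs4 rose (log2 change 0.43, adjusted p = 0.0219).

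**Figure D3:**
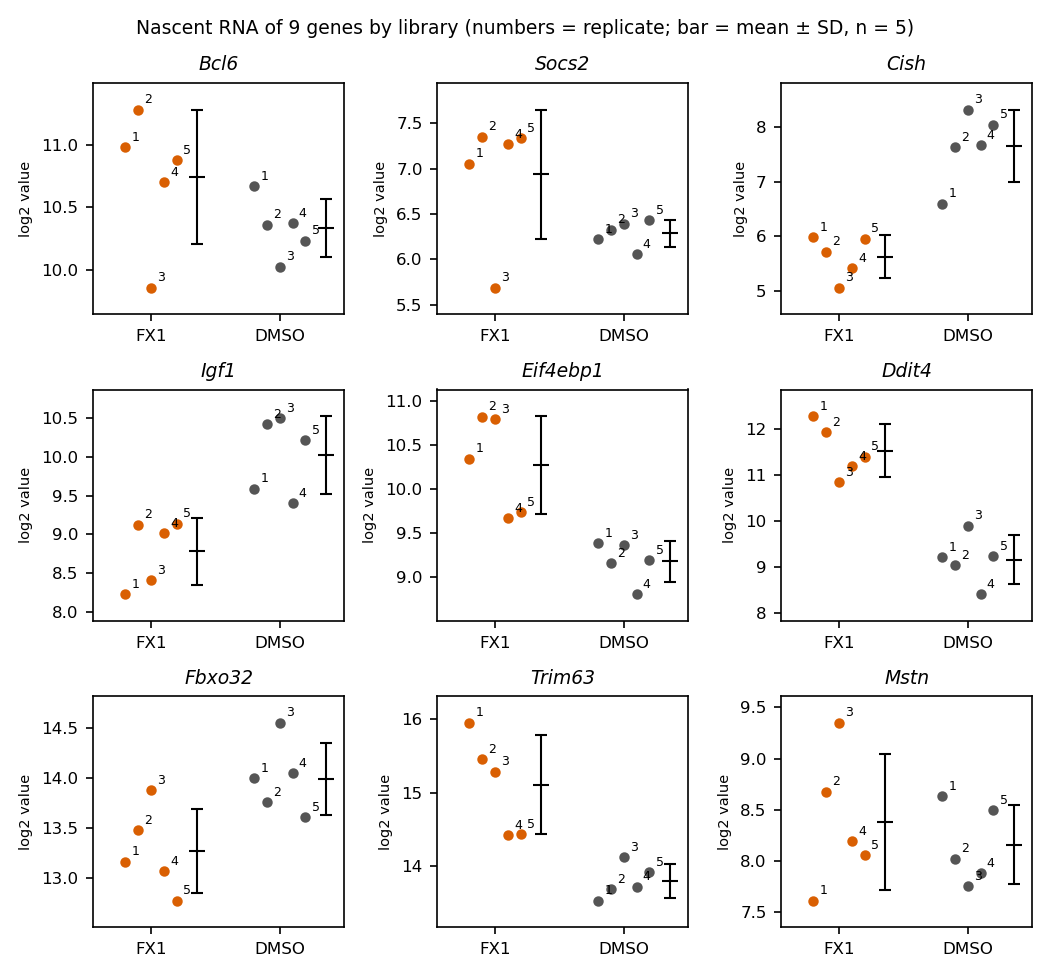
Each panel gives the log2 values of a gene in the 5 FX1 libraries on the left and the 5 DMSO libraries on the right, numbered by replicate, with the mean and SD beside each group. For Bcl6 and Socs2, FX1 replicate 3 lies below all DMSO libraries while the other FX1 libraries lie above them, and for Cish, Igf1, Eif4ebp1, Ddit4 and Trim63 the groups do not overlap.

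BCL6 peaks lay within 1000 bp of the annotated start of 1499 tested genes, out of 10925 peaks in the list. Of these genes 171 were raised, which is 11.4% (95% Wilson interval 9.9% to 13.1%), and 210 were lowered, which is 14.0% (12.3% to 15.9%). Of the 11540 genes without such a peak 12.5% were raised (12.0% to 13.2%) and 10.8% lowered (10.3% to 11.4%). Median changes were -0.02 with a peak and 0.02 without. These are shares of genes in 1 set of libraries and 1 peak list, and the intervals cover counting error only. The raised genes with the highest peak scores were Scfd2 (393.2), Shb (166.6), Fer (156.8), 2310035C23Rik (154.4) and Il6ra (133.5). Il6ra encodes the ligand-binding chain of the interleukin 6 receptor, and its log2 values were 10.86, 10.85, 10.22, 10.58 and 10.64 with FX1, against 8.996, 9.15, 9.21, 8.48 and 9.19 with DMSO (log2 change 1.62, SE 0.17, adjusted p = 0.00014), with no overlap between groups. The other changes were smaller: Scfd2, a SEC1-family trafficking gene, by 0.44, the adaptor gene Shb by 0.53, the tyrosine kinase gene Fer by 0.34 and 2310035C23Rik by 0.50. Among lowered genes the highest scores were those of Cish (715.4), Nnt (284.2), Fbxl19 (251.1), Fez2 (234.0) and Ttc41 (208.3). Nnt, the mitochondrial transhydrogenase that supplies NADPH, had 8.66, 8.44, 9.26, 9.09 and 8.93 with FX1, against 10.52, 10.55, 10.05, 10.14 and 10.46 with DMSO (log2 change -1.47, SE 0.17, adjusted p = 0.000233). Fbxl19, Fez2 and Ttc41 changed by -0.43, -0.31 and -0.68. The calls of Scfd2, Fer, Fbxl19 and Fez2 were lost when any 1 of 6, 7, 8 and 4 of the 10 libraries was left out.

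Promoters are printed for those called genes with high peak scores or large changes whose peak centre falls inside the window shown, since these are the places where binding and the FX1 response can be read together. They run from 250 bases upstream of the start to 30 bases into the transcript, 5′ to 3′ on the strand of the gene, from RefSeq (GRCm38.p6, the same build as mm10), and 4 of 5 such genes matched the sequence table. Capitals mark each match to TTCNNNGAA, which reads the same on both strands and is the core shared by STAT sites and by the BCL6 sites known from B cells.
Cish: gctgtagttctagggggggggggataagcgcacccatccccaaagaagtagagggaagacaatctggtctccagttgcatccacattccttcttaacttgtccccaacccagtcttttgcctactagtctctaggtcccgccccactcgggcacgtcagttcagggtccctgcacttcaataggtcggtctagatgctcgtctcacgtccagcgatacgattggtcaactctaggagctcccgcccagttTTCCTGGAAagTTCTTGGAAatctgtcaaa
Scfd2: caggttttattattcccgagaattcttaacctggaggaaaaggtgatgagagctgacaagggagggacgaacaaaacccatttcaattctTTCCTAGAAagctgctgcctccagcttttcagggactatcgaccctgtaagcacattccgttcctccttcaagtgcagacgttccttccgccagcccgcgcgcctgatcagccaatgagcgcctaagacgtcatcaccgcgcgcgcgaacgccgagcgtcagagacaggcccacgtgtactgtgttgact
Agt: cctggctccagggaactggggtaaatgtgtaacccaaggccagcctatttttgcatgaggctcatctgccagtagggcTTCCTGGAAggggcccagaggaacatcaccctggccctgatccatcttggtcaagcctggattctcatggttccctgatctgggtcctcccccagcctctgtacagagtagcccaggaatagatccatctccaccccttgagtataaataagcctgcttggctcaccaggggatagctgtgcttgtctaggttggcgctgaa
Il6ra: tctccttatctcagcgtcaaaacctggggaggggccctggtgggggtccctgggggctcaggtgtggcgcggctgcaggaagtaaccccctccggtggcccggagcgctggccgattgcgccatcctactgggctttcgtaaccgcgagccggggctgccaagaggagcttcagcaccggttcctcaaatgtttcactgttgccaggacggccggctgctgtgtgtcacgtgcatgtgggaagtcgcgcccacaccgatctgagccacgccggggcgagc
The Cish window (chr9:107296409-107296688, plus strand) holds 2 matches, TTCCTGGAA from the first transcribed base and TTCTTGGAA from base 12, and the peak is centred at base 25. The Scfd2 window (chr5:74531713-74531992, minus strand) holds TTCCTAGAA starting 160 bases upstream of the start, where the peak is centred at 161 bases upstream. In the Agt window (chr8:124569677-124569956, minus strand; peak score 24.5, centred 70 bases upstream) TTCCTGGAA starts 172 bases upstream. The Il6ra window (chr3:89913167-89913446, minus strand), whose peak is centred 57 bases upstream, does not contain these letters. TTCNNNGAA occurs in 7.83% of all 32851 promoter windows of this length and in 17.9% of the 509 windows of genes with a peak centre inside. The form TTCCTAGAA, searched on both strands and contained in TTCNNNGAA, occurs in 0.387% and 2.55% of them. Cish fell, and Scfd2, Agt and Il6ra rose, so among these printed promoters a match was found beside changes in both directions.

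Genes of growth hormone and cytokine signalling changed in both directions, with 7 of 25 tested members raised, 4 lowered and a median change of 0.14. Without FX1 replicate 3 the counts were 8 and 7, and without DMSO replicate 3 they were 4 and 2. The lowered numbered 2 without FX1 replicate 1, 4 or 5 or DMSO replicate 1, 2 or 5. For comparison, 12.4% of all genes tested were raised and 11.2% lowered, with a median change of 0.02. The growth hormone receptor gene Ghr fell (log2 change -0.79, adjusted p = 0.0108), as did Stat5a (log2 change -0.29, adjusted p = 0.0435), whose call was lost when any 1 of 9 of the 10 libraries was left out. On the cytokine side Jak1 (log2 change 0.73, adjusted p = 0.0223), Stat3 (log2 change 0.71, adjusted p = 0.0165), the oncostatin M receptor gene Osmr (log2 change 0.97, adjusted p = 0.0346) and Il6ra rose, though Osmr no longer passed without any 1 of 7 of the libraries. The phosphatase genes Ptpn1 (log2 change 0.89, adjusted p = 0.00745) and Ptpn11, which encodes SHP2, rose too. Ptpn11 had log2 values of 12.45, 12.79, 12.80, 12.27 and 12.23 with FX1, against 11.63, 11.30, 11.50, 11.46 and 11.48 with DMSO (log2 change 1.03, SE 0.14, adjusted p = 0.000597), without overlap.

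Igf1, the growth factor that growth hormone induces through STAT5, had log2 values of 8.23, 9.13, 8.41, 9.01 and 9.14 with FX1, against 9.59, 10.42, 10.50, 9.40 and 10.21 with DMSO (log2 change -1.24, SE 0.25, adjusted p = 0.00537), and all FX1 libraries were below all DMSO libraries. Downstream of IGF1 and insulin, 3 of 26 tested genes were raised (11.5%, 6 without FX1 replicate 3) and 4 lowered (15.4%), with a median of -0.02. These shares are close to the 12.4% and 11.2% of all genes tested. The insulin receptor substrate gene Irs1 fell (log2 change -1.18, adjusted p = 0.00166), as did Grb14, an adaptor that inhibits the insulin receptor (log2 change -1.11, adjusted p = 0.00508). Tbc1d4 and Tbc1d1 encode related Rab regulators that hold back the glucose transporter GLUT4, and they moved apart. Tbc1d4 had 10.73, 10.47, 10.14, 10.66 and 10.82 with FX1, against 12.05, 12.30, 12.30, 12.30 and 12.20 with DMSO (log2 change -1.67, SE 0.13, adjusted p = 4.37e-05), whereas Tbc1d1 rose (log2 change 0.91, adjusted p = 0.0204). Igf1r and Grb10 rose by 0.56 and 0.54, and Akt1, Akt2 and the GLUT4 gene Slc2a4 changed by -0.15, 0.21 and -0.13 without passing.

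Among mTORC1 and cap-binding genes, 6 of 29 were raised (20.7%, beside 12.4% of all genes tested) and 5 lowered (17.2%, beside 11.2%), with a median of -0.01. The raised members numbered 3 without FX1 replicate 2 or without DMSO replicate 1, 3, 4 or 5. Ddit4, whose product REDD1 restrains mTORC1, had log2 values of 12.28, 11.94, 10.85, 11.19 and 11.39 with FX1, against 9.21, 9.03, 9.89, 8.40 and 9.24 with DMSO (log2 change 2.38, SE 0.30, adjusted p = 0.000376), and the groups did not overlap. Its paralog Ddit4l fell (log2 change -1.42, adjusted p = 0.000253), with values of 8.25, 8.17, 7.69, 8.39 and 8.65 with FX1, against 9.88, 9.62, 9.57, 9.77 and 9.41 with DMSO. Eif4ebp1, which encodes the translation inhibitor 4E-BP1, had 10.35, 10.82, 10.80, 9.68 and 9.74 with FX1, against 9.39, 9.16, 9.37, 8.81 and 9.20 with DMSO (log2 change 1.09, SE 0.23, adjusted p = 0.00655), again without overlap, and its paralog Eif4ebp3 rose (log2 change 0.68, adjusted p = 0.0461) while Eif4ebp2 changed by 0.12 without passing. The call of Eif4ebp3 was lost when any 1 of 8 of the 10 libraries was left out. The sestrin genes Sesn1 and Sesn3, whose products restrain mTORC1 when leucine is scarce, rose by 0.54 and 0.36, calls lost without any 1 of 6 and 7 of the libraries. The amino acid signalling gene Gatsl2, now named Castor2 (log2 change -0.88, adjusted p = 0.00232), the mTORC1 inhibitor gene Tsc2 (log2 change -0.54, adjusted p = 0.0203) and Akt1s1, which encodes PRAS40 (log2 change -0.57, adjusted p = 0.00455), fell. Eif4e, the cap-binding protein that 4E-BP1 holds, changed by -0.16 without passing.

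Of 21 tested genes of FOXO factors and muscle ubiquitin ligases, 4 were raised (19.0%) and 3 lowered (14.3%), beside 12.4% and 11.2% of all genes tested, and the median was 0.05. Foxo1 had 14.84, 15.38, 15.28, 14.38 and 14.31 with FX1, against 13.74, 13.33, 13.43, 12.84 and 13.75 with DMSO (log2 change 1.42, SE 0.25, adjusted p = 0.00268) and Foxo3 had 12.58, 12.66, 12.06, 11.87 and 12.06 with FX1, against 11.13, 10.87, 10.85, 10.71 and 11.05 with DMSO (log2 change 1.32, SE 0.17, adjusted p = 0.000375), both without overlap. Their atrophy-linked targets differed: Trim63, which encodes the ligase MuRF1, had 15.95, 15.45, 15.29, 14.42 and 14.44 with FX1, against 13.53, 13.69, 14.12, 13.72 and 13.92 with DMSO (log2 change 1.31, SE 0.28, adjusted p = 0.0069), whereas Fbxo32, which encodes atrogin-1, had 13.17, 13.48, 13.88, 13.07 and 12.78 with FX1, against 14.004, 13.76, 14.56, 14.05 and 13.62 with DMSO (log2 change -0.72, SE 0.23, adjusted p = 0.039). The Fbxo32 groups overlapped, and the gene no longer passed when any 1 of 8 of the 10 libraries was left out. Trim54 rose (log2 change 0.62, adjusted p = 0.0498), likewise losing its call without any 1 of 8 libraries, and its paralog Trim55 fell (log2 change -1.74, adjusted p = 0.00444), as did the ligase gene Nedd4 (log2 change -1.12, adjusted p = 0.0043). Mstn, the gene of the muscle growth inhibitor myostatin, had 7.61, 8.68, 9.35, 8.19 and 8.06 with FX1, against 8.64, 8.02, 7.76, 7.89 and 8.50 with DMSO and missed the threshold (log2 change 0.22, SE 0.29, adjusted p = 0.628). Receptor genes of the myostatin and activin pathway moved apart. The type II receptor gene Acvr2b was lower (log2 change -1.33, adjusted p = 0.000349) and the type I receptor gene Acvr1b higher (log2 change 0.94, adjusted p = 0.0019). Acvr1, another type I receptor gene, was lower (log2 change -0.49, adjusted p = 0.00571). In the myostatin and activin list 4 of 25 were raised and 3 lowered, shares close to those of all genes. The raised numbered 1 without FX1 replicate 1 or 2 or DMSO replicate 1 or 5 and 2 without FX1 replicate 5, and 6 were raised and 5 lowered without FX1 replicate 3.

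Immediate early transcription factor genes, which respond to stimuli without new protein synthesis, had the largest median rise of the 42 lists examined. Of 19 tested, 12 were raised (63.2%, beside 12.4% of all genes tested) and all 19 changes were above 0. The median change was 0.95 against 0.02 for all genes. The raised genes were Nr4a3, Junb, Zfp36, Btg2, Klf4, Fosl2, Atf3, Nr4a2, Egr1, Klf2, Nr4a1 and Klf6. Zfp36, which encodes the mRNA decay factor tristetraprolin, had 10.93, 11.27, 9.75, 9.90 and 9.96 with FX1, against 8.20, 8.06, 8.18, 7.39 and 8.27 with DMSO (log2 change 2.34, SE 0.30, adjusted p = 0.000389), and Klf4 had 9.97, 10.32, 7.45, 8.28 and 8.79 with FX1, against 6.69, 7.32, 7.20, 6.20 and 7.13 with DMSO (log2 change 2.06, SE 0.47, adjusted p = 0.00985). Nr4a1 lost its call when any 1 of 9 of the 10 libraries was left out, Nr4a2, Egr1 and Klf2 when any 1 of 8 was, and Atf3 when any 1 of 7 was. Fos itself missed the threshold (log2 change 0.95, adjusted p = 0.107), as did Jun (log2 change 0.34, adjusted p = 0.0907). By library, the median of the list stood 1.797 and 1.601 above the DMSO mean in FX1 replicates 1 and 2, against 0.116, 0.587 and 0.745 in replicates 3, 4 and 5. The count depended on single libraries: 15 of the 19 were raised without FX1 replicate 3, 6 without FX1 replicate 2, and 7 without FX1 replicate 1 or DMSO replicate 1, 3 or 4, while the median stayed between 0.74 and 1.21.

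Of 22 tested genes for the glucocorticoid receptor and its targets 14 were raised (63.6%, beside 12.4% of all genes tested) and 1 was lowered (Fbxo32). Ddit4, Foxo1, Foxo3, Trim63, Fbxo32 and Zbtb16 were also counted in lists above, and Lcn2 in the NF-kB list below. The counts of these lists thus share genes. The lowered share was 4.55%, beside 11.2%, and the median was 0.80. Fkbp5, a cochaperone of the glucocorticoid receptor that the receptor itself induces, had 14.70, 14.92, 15.07, 14.22 and 14.43 with FX1, against 12.91, 12.34, 12.79, 12.40 and 12.89 with DMSO (log2 change 2.002, SE 0.19, adjusted p = 0.000114), with all FX1 libraries well above all DMSO libraries. Errfi1, an inhibitor of the EGF receptor, had 12.74, 12.998, 11.80, 12.11 and 12.39 with FX1, against 9.97, 9.97, 9.92, 9.60 and 10.12 with DMSO (log2 change 2.49, SE 0.21, adjusted p = 4.72e-05). The other raised members were Ddit4, Lcn2, Foxo1, Foxo3, Trim63, Zbtb16, the metallothionein genes Mt1 (1.61) and Mt2 (1.56), Cebpd (0.86), Per1 (0.80), Klf15 (0.80) and Hsd11b1 (0.62). Mt1 and Per1 no longer passed when any 1 of 6 and any 1 of 5 of the 10 libraries was left out. The receptor gene Nr3c1 missed the threshold (log2 change 0.70, adjusted p = 0.142), and the targets Tsc22d3 and Pdk4 changed by 0.56 and -0.49 without passing. The medians by library were 1.275, 1.138, 0.342, 0.706 and 0.738 above the DMSO mean in FX1 replicates 1 to 5. Without FX1 replicate 3, 16 members were raised and 2 lowered, and 11 were raised without FX1 replicate 2.

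Of 17 tested NF-kB and inflammation genes 7 were raised (41.2%, beside 12.4% of all genes tested), with a median of 0.42. On this list 13 of the 30 genes were below the filter. Nfkbia, the inhibitor of NF-kB that NF-kB induces, had 10.69, 10.35, 9.94, 10.28 and 10.38 with FX1, against 9.03, 8.73, 9.10, 8.63 and 9.06 with DMSO (log2 change 1.42, SE 0.15, adjusted p = 0.00014), and Nfkbiz, a nuclear member of the same family, rose (log2 change 0.86, adjusted p = 0.00042). Of 24 tested p53 and cell cycle genes 9 were raised (37.5%) and 1 was lowered (4.17%), beside 12.4% and 11.2% of all genes tested. The raised numbered 11 without FX1 replicate 3 and 6 without FX1 replicate 2 or DMSO replicate 1 or 4. Without FX1 replicate 5, 2 were lowered. Cdkn1a, the inhibitor of cyclin-dependent kinases p21 and a BCL6 target in B cells, had 10.88, 11.04, 9.43, 9.66 and 9.89 with FX1, against 7.76, 8.31, 8.40, 7.66 and 8.25 with DMSO (log2 change 2.11, SE 0.31, adjusted p = 0.000875). Trp53inp1 rose (log2 change 1.44, adjusted p = 0.000362) and Phlda3 fell (log2 change -1.12, adjusted p = 0.000412). Of 21 tested genes known as BCL6 targets in B cells, macrophages or liver, 5 were raised (23.8%) and 3 lowered (14.3%). The median change was 0.16, and of all genes tested 12.4% were raised and 11.2% lowered. The raised targets were Bcl2l1, Cdkn1a, Irf4, Id2 and Ptpn1, and Cish and Cd44 were among the lowered. The raised numbered 3 without FX1 replicate 2 or 5, and the lowered 1 without FX1 replicate 1 or 2 or DMSO replicate 3 or 5. Irf4 and Cd44 lost their calls without any 1 of 7 and any 1 of 5 of the 10 libraries.

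Of 19 fast-fibre genes 10 were lowered (52.6%, beside 11.2% of all genes tested) and the other 9 did not pass, with a median change of -0.73, and 13 were lowered without FX1 replicate 3. Cacna1s, the voltage sensor that couples excitation to contraction, had 9.91, 9.91, 10.45, 10.69 and 10.62 with FX1, against 12.16, 12.03, 12.05, 12.41 and 12.01 with DMSO (log2 change -1.82, SE 0.17, adjusted p = 0.000111), and its partner, the calcium release channel gene Ryr1, had 14.37, 14.09, 14.60, 14.51 and 14.52 with FX1, against 15.43, 15.28, 15.33, 15.75 and 15.36 with DMSO (log2 change -1.02, SE 0.16, adjusted p = 0.00127). Casq1, which encodes the calcium store protein of fast fibres, had 11.20, 11.26, 11.56, 11.62 and 11.54 with FX1, against 12.47, 12.55, 12.61, 12.88 and 12.60 with DMSO (log2 change -1.19, SE 0.12, adjusted p = 0.000146). In all of these the groups did not overlap. The fast myosin genes Myh1 and Myh2 fell by 0.96 and 1.04 on the log2 scale, and Myh4 missed the threshold (log2 change -0.73, adjusted p = 0.0762). Of 16 slow-fibre genes 3 were lowered (18.8%, beside 11.2% of all genes tested), with a median of -0.57. Without FX1 replicate 4 or 5 or DMSO replicate 3 the lowered numbered 5. Casq2 had 8.08, 7.61, 7.43, 7.68 and 7.98 with FX1, against 9.27, 8.98, 8.87, 9.33 and 9.14 with DMSO (log2 change -1.36, SE 0.14, adjusted p = 0.00015). The others were the slow myosin-binding gene Mybpc1 (log2 change -1.67, adjusted p = 0.000365) and the slow troponin gene Tnni1 (log2 change -1.18, adjusted p = 0.000632). The slow myosin gene Myh7 missed the threshold too (log2 change -0.94, adjusted p = 0.189). Myod1, the myogenic transcription factor, had 5.57, 6.22, 5.74, 6.58 and 6.53 with FX1, against 8.07, 7.96, 8.14, 8.19 and 7.90 with DMSO (log2 change -1.92, SE 0.19, adjusted p = 0.000139), and its relative Myf6 fell (log2 change -1.15, adjusted p = 0.000843). The synapse kinase gene Musk rose, with 12.86, 13.60, 13.11, 12.17 and 12.30 with FX1, against 11.30, 11.07, 11.06, 10.85 and 11.02 with DMSO (log2 change 1.75, SE 0.24, adjusted p = 0.000645), while the acetylcholine receptor genes Chrna1 and Chrne and the clustering gene Rapsn fell by 0.55, 0.80 and 0.83 on the log2 scale. In the denervation and regeneration list 4 of 19 were raised (21.1%, beside 12.4% of all genes tested) and 8 lowered (42.1%). The raised numbered 1 without FX1 replicate 2 or DMSO replicate 3 or 5 and 2 without FX1 replicate 1 or DMSO replicate 1 or 2.

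Of 15 markers that define muscle fibres 7 were lowered (46.7%, beside 11.2% of all genes tested) and 8 did not pass. The 15 include Cacna1s, Ryr1, Myh1, Myh2 and Myh4, named with the fast-fibre genes above, so both counts share genes. Their summed level per kb of gene span on the log2 scale was 14.6 to 15.3 in FX1 libraries and 15.5 to 15.9 in DMSO libraries, without overlap. Ckm, the muscle creatine kinase, had 12.83, 13.22, 13.71, 13.73 and 13.61 with FX1, against 14.43, 14.37, 14.47, 14.44 and 14.41 with DMSO (log2 change -1.003, SE 0.18, adjusted p = 0.00271). In whole muscle, fewer cells of a type and less RNA per cell cannot be told apart. Of 8 tested macrophage markers 3 were raised (37.5%, beside 12.4% of all genes tested) and 5 did not pass. The change was above 0 for only 5 of the 8, and the lowest was -0.45. Levels were taken over all 15 listed macrophage markers, including those below the filter, and a few high genes can carry a sum. The summed level was 9.98 to 10.4 with FX1 and 8.64 to 9.32 with DMSO. The median level of the 15 overlapped, at 2.75 to 3.25 with FX1 and 2.66 to 3.44 with DMSO. Itgam (log2 change 0.72, adjusted p = 0.0233) and C1qb (log2 change 1.03, adjusted p = 0.0051) were among those raised, while the defining markers Cd68, Cd14, C1qa, C1qc, Fcgr1, Ms4a7 and Ccr2 were below the filter. Endothelial markers had 3 of 14 raised (21.4%, beside 12.4% of all genes tested). The raised numbered 5 without FX1 replicate 3, and at most 1 without FX1 replicate 1, 2 or 5 or DMSO replicate 1, 3 or 4. They were Esam (log2 change 1.02, adjusted p = 0.0256), Flt1 (log2 change 1.03, adjusted p = 0.0343) and Cldn5 (log2 change 1.17, adjusted p = 0.0492) with all libraries. The summed endothelial level overlapped between groups (6.62 to 8.32 with FX1, 6.67 to 7.35 with DMSO). Flt1 had 12.27, 12.14, 10.64, 12.07 and 12.38 with FX1, against 10.62, 11.18, 11.04, 10.28 and 11.23 with DMSO, with FX1 replicate 3 at the level of DMSO. Adipocyte markers had 4 of 10 tested lowered (40.0%, beside 11.2% of all genes tested), and 2 without FX1 replicate 2 or 5 or DMSO replicate 2 or 3. The lowered were led by Adipoq with 5.57, 5.44, 5.94, 6.51 and 5.54 with FX1, against 6.76, 7.73, 7.98, 6.90 and 7.11 with DMSO (log2 change -1.49, SE 0.27, adjusted p = 0.0028). The summed level of all 11 listed adipocyte markers overlapped as well (8.88 to 9.79 with FX1, 8.88 to 10.1 with DMSO). Of 14 lymphocyte markers 12 were below the filter, and of 12 neutrophil and mast cell markers 10 were. The part of these markers in the other results was not tested.

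Of 32 glycolysis and glycogen genes 16 were lowered (50.0%, beside 11.2% of all genes tested) and 2 raised (6.25%, beside 12.4%), with a median of -0.58. The raised were Pfkfb4 and Pgm1, and 4 were raised without FX1 replicate 3. Eno3, the muscle enolase, had 10.40, 11.09, 12.25, 11.49 and 11.27 with FX1, against 13.02, 12.93, 13.07, 13.20 and 12.93 with DMSO (log2 change -1.73, SE 0.26, adjusted p = 0.00116), with FX1 replicate 3 nearest to DMSO. Tpi1 had 8.88, 9.58, 9.64, 9.75 and 9.63 with FX1, against 10.52, 10.56, 10.68, 10.48 and 10.56 with DMSO (log2 change -1.06, SE 0.15, adjusted p = 0.000789) and the muscle phosphoglycerate mutase gene Pgam2 fell (log2 change -0.87, adjusted p = 0.000619). Among the others lowered were Pfkm, Aldoa, Gapdh, Eno1, Pkm, Ldha, Ldhb, Phkg1, Gys1, Ugp2, Pgm2 and Fbp2, while the glycogen phosphorylase gene Pygm, at -0.45, did not pass. Ugp2 and Pkm lost their calls when any 1 of 8 and any 1 of 7 of the 10 libraries was left out. Of 37 fatty acid uptake and oxidation genes 19 were lowered (51.4%) and 3 raised (8.11%), with a median of -0.43. The raised were Acsl5, Eci2 and Ucp3. Cpt1b, which admits fatty acids to mitochondria, had 8.34, 9.02, 8.98, 9.30 and 9.02 with FX1, against 10.15, 10.11, 10.14, 10.35 and 10.04 with DMSO (log2 change -1.22, SE 0.16, adjusted p = 0.000433), and the β-oxidation genes Hadh and Acaa2 fell by 1.08 and 0.88 on the log2 scale. Without FX1 replicate 3, 19 of the glycolysis and 21 of the fatty acid genes were lowered. With any other library left out, the lowered numbered 12 to 15 and 13 to 18. Of 44 oxidative phosphorylation subunit genes 5 were lowered, which is 11.4%, close to the 11.2% of all genes, and the median was -0.18. At most 1 was lowered without FX1 replicate 1 or 5 or DMSO replicate 1, 2, 3 or 5, and 9 without DMSO replicate 4. Among their regulators Ppara rose (log2 change 1.06, adjusted p = 0.00397), as did Ppard (log2 change 1.54, adjusted p = 0.00359), beside the fall of Ppargc1b. Of 24 fatty acid and sterol synthesis genes 4 were raised (16.7%) and 3 lowered (12.5%), beside 12.4% and 11.2% of all genes tested. Their median was 0.11, and the raised numbered 6 without FX1 replicate 3 and 2 without FX1 replicate 1 or 2 or DMSO replicate 5. Glucose-responsive Mlxipl (log2 change -1.11, adjusted p = 0.00293) and Gpam, the entry enzyme of triglyceride synthesis (log2 change -1.20, adjusted p = 0.000349), fell.

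**Figure D4:**
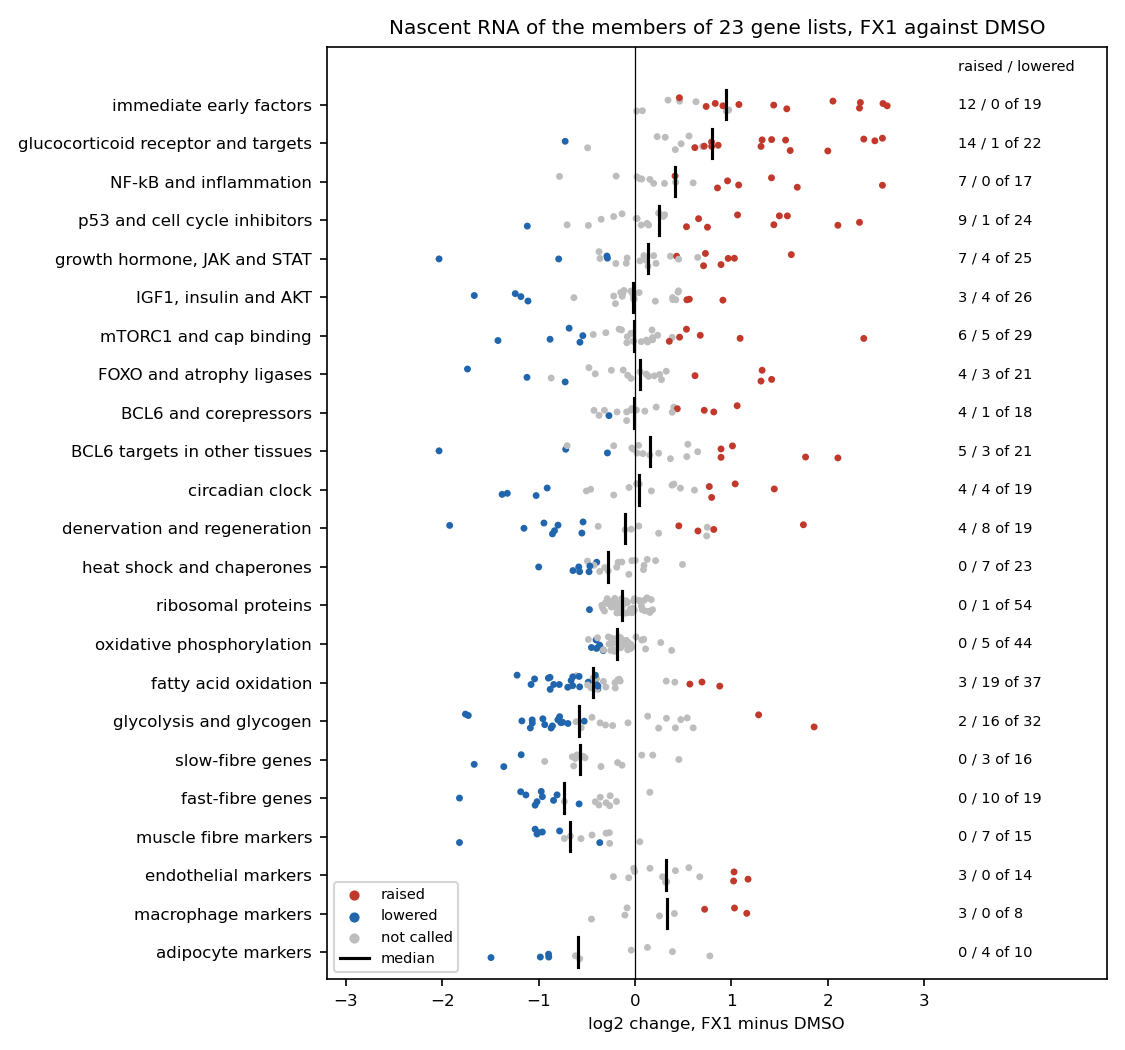
Each point is a tested member of a gene list, with its log2 change, FX1 minus DMSO, on the x axis, coloured by call, and the black bar is the median of the list. The numbers on the right give members raised and lowered of those tested. Immediate early and glucocorticoid lists lie mostly right of 0, and fibre, glycolysis and fatty acid oxidation lists mostly left of it.

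The other lists are set beside the 12.4% raised and 11.2% lowered among all genes tested. Of 23 heat shock and chaperone genes 7 were lowered (30.4%), among them Hspb8, a small heat shock protein of muscle (log2 change -0.999, adjusted p = 0.00802), and Hspd1 (log2 change -0.48, adjusted p = 0.0211). They numbered 1 without DMSO replicate 3, 2 without FX1 replicate 1 or DMSO replicate 2 or 5, 3 without FX1 replicate 2 and 4 without DMSO replicate 1 or 4. Of 54 ribosomal protein genes only Rpl32 passed (log2 change -0.47, adjusted p = 0.0243), a call lost when any 1 of 5 of the 10 libraries was left out, and the median was -0.14. Of 19 core clock genes 4 were raised (2 without FX1 replicate 1 or 2 or DMSO replicate 4) and 4 lowered, with Nr1d1 at 10.57, 10.998, 10.72, 11.05 and 11.22 with FX1, against 12.33, 12.16, 12.43, 12.16 and 12.10 with DMSO (log2 change -1.32, SE 0.14, adjusted p = 0.00014) and Dbp (log2 change -1.38, adjusted p = 0.00398) and Bhlhe41 (log2 change -0.91, adjusted p = 0.00544) among those lowered. In the stress response list 5 of 26 were raised, such as Stc2 (log2 change 0.95, adjusted p = 0.000374), and 4 lowered, such as Chac1 (log2 change -1.50, adjusted p = 0.000534) and Ddit3 (log2 change -0.80, adjusted p = 0.00271), both targets of the stress factor ATF4. Interferon and MHC genes had 3 of 25 raised, Usp18 (0.52), Ifih1 (0.54) and Irf8 (0.51), and 1 lowered. The 12.0% raised is close to the share of all genes, 1 was raised without DMSO replicate 1 or 3, and Ifih1 and Irf8 lost their calls without any 1 of 5 and any 1 of 6 of the 10 libraries. Of 28 xenobiotic and oxidative stress genes 6 were raised (21.4%, and 3 genes without DMSO replicate 1 or 3), with Tiparp, an aryl hydrocarbon receptor target, at 12.16, 12.50, 11.89, 11.68 and 11.65 with FX1, against 10.44, 10.13, 10.01, 9.44 and 10.10 with DMSO (log2 change 1.95, SE 0.20, adjusted p = 0.00014) and Srxn1, an NRF2 target, changed by 2.03. Of 21 hypoxia and angiogenesis genes 3 were raised (14.3%) and 4 lowered (19.0%), with a median of 0.09 and changes up to 1.83. The raised numbered 6 without FX1 replicate 3, and 2 without FX1 replicate 1, 2 or 4 or DMSO replicate 1, 3 or 4. The angiogenic factor genes Vegfa, Vegfb and Angpt1 fell by 0.92, 0.52 and 0.75 on the log2 scale. Matrix and TGF-β genes had 7 of 30 raised, among them Tgfb3 (log2 change 0.78, adjusted p = 0.00335) and Col5a1 (log2 change 1.63, adjusted p = 0.00492), and 3 lowered (1 without FX1 replicate 2 or DMSO replicate 2, 3 or 5). Of 25 potassium channel genes 6 were lowered, with Kcnc4 and Kcna7 changed by -0.97 and -0.83, and 1 was raised (4 without FX1 replicate 3).

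Calls varied with the length of the gene over which tags were counted. With the genes split into 4 equal groups from the shortest span to the longest, 7.06%, 9.84%, 14.3% and 18.4% were raised and 14.4%, 12.3%, 10.5% and 7.61% lowered. The shortest group spanned up to 12.255 kb and the longest from 67.003 kb. The median change was -0.10, -0.01, 0.08 and 0.13 in the same order. The part of gene length in the other results was not tested.

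Poly(A) RNA of knockout muscle was set beside the FX1 values, from separately normalized tables, other libraries and another RNA fraction, and the difference between the experiments was not tested. Both knockout comparisons use the same 5 knockout libraries, in which Bcl6 poly(A) RNA changed by -0.23 against Cre-negative muscle (adjusted p = 0.0135) and -0.31 against oil (adjusted p = 0.00288). There, 6.55% of all genes tested against Cre-negative muscle were raised and 10.3% lowered, and 10.9% and 14.7% against oil. Against Cre-negative muscle, 11042 genes were tested in both tables. Of 1367 genes raised with FX1, 95 were raised in knockout (6.95%), beside 6.14% of all 11042, and 128 were lowered (9.36%). Of 1180 genes lowered with FX1, 260 were lowered in knockout (22.0%), beside 11.1% of all, and 92 were raised (7.80%). Taken from the other list, the shared genes are 14.0% of the 678 raised and 21.1% of the 1231 lowered in knockout. With FX1, 12.4% of all 11042 genes were raised, close to the 14.0%, and 10.7% were lowered. Against oil the same counts were 155 of 1376 raised (11.3%, beside 10.5% of all) and 356 of 1185 lowered (30.0%, beside 15.8%). Of the genes raised with FX1, 196 were lowered there against oil (14.2%), and of those lowered with FX1, 138 were raised (11.6%). Across the 11042 genes the changes correlated at r = 0.073 (Spearman rho 0.054), a description across genes that share the fibre and metabolic groups above.

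The genes raised in all 3 comparisons numbered 75 and those lowered 235. Another 105 were raised with FX1 and lowered in knockout against both controls, and 77 the reverse. Lowered calls were the more common in knockout among genes tested in both tables. Against Cre-negative muscle 6.14% were raised and 11.1% lowered, and against oil 10.5% and 15.8%. Both controls were compared with the same knockout libraries, so calls against both are not independent. The share of all genes called against both was not computed, so these counts have no background. Among the genes raised in all 3 comparisons, those with the smallest p with FX1 were Il6ra, Nfkbia, Spsb1, Ip6k2 and Mocs1. Il6ra changed by 0.25 against Cre-negative muscle (adjusted p = 0.00294) and 0.36 against oil (adjusted p = 0.00021) in knockout, Nfkbia by 0.32 against Cre-negative muscle (adjusted p = 0.00245) and 0.33 against oil (adjusted p = 0.00159), and Spsb1, a substrate adaptor of ubiquitin ligases with an FX1 change of 1.86, by 0.41 against Cre-negative muscle (adjusted p = 1.54e-05) and 0.51 against oil (adjusted p = 1.81e-06). Eif4ebp1, too, was higher in knockout, by 0.40 against Cre-negative muscle (adjusted p = 1.32e-05) and 0.57 against oil (adjusted p = 3.22e-07). Socs2, which missed the threshold with FX1 when all libraries were used, is not among the shared rises. In knockout it was higher, by 0.36 against Cre-negative muscle (adjusted p = 0.0041) and 0.71 against oil (adjusted p = 2.86e-05). Among the genes lowered in all 3 comparisons were Tmem109, Clec2d, 6430571L13Rik, Hfe2 and Lmod3. Tmem109, a channel protein of the endoplasmic reticulum, had nascent values of 7.97, 8.01, 8.21, 8.16 and 8.22 with FX1, against 9.19, 9.24, 9.37, 9.44 and 9.22 with DMSO (log2 change -1.18, SE 0.10, adjusted p = 4.37e-05) and changed by -0.22 against Cre-negative muscle (adjusted p = 0.000167) and -0.26 against oil (adjusted p = 5.93e-05) in knockout. Hfe2, the muscle and liver gene of hemojuvelin, and Lmod3, an actin nucleator of the sarcomere, changed by -1.54 and -1.20 with FX1. Igf1 was lower in knockout as well, by -0.98 against Cre-negative muscle (adjusted p = 1.55e-06) and -1.07 against oil (adjusted p = 1.78e-05).

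Some genes went opposite ways, and others passed with FX1 only or in knockout only. Casq2 was higher in knockout, by 0.42 against Cre-negative muscle (adjusted p = 9.48e-06) and 0.75 against oil (adjusted p = 4.75e-08), and lower with FX1. Col5a1 rose with FX1 and was lower in knockout, with a change of -0.29 against Cre-negative muscle. Fkbp5 changed by -0.35 against Cre-negative muscle (adjusted p = 0.0365) and -0.23 against oil (adjusted p = 0.0723) in knockout, and Fbxo32 by 0.15 against Cre-negative muscle (adjusted p = 0.0259) and 0.42 against oil (adjusted p = 0.00137). Mstn, which did not pass with FX1 and whose groups overlapped there, was higher in knockout. It changed there by 0.49 against Cre-negative muscle (adjusted p = 3.69e-07) and 0.50 against oil (adjusted p = 1.48e-07). Ddit4 and Trim63, which rose with FX1, did not pass in knockout. The changes there were 0.14 against Cre-negative muscle (adjusted p = 0.424) and 0.10 against oil (adjusted p = 0.548) for Ddit4, and -0.10 against Cre-negative muscle (adjusted p = 0.0814) and 0.03 against oil (adjusted p = 0.559) for Trim63. Cish, the gene with the strongest peak among those lowered with FX1, was lower in knockout against Cre-negative muscle too, by -0.42 (adjusted p = 0.00599). Against oil it changed by -0.08 without passing (adjusted p = 0.829).

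**Figure D5:**
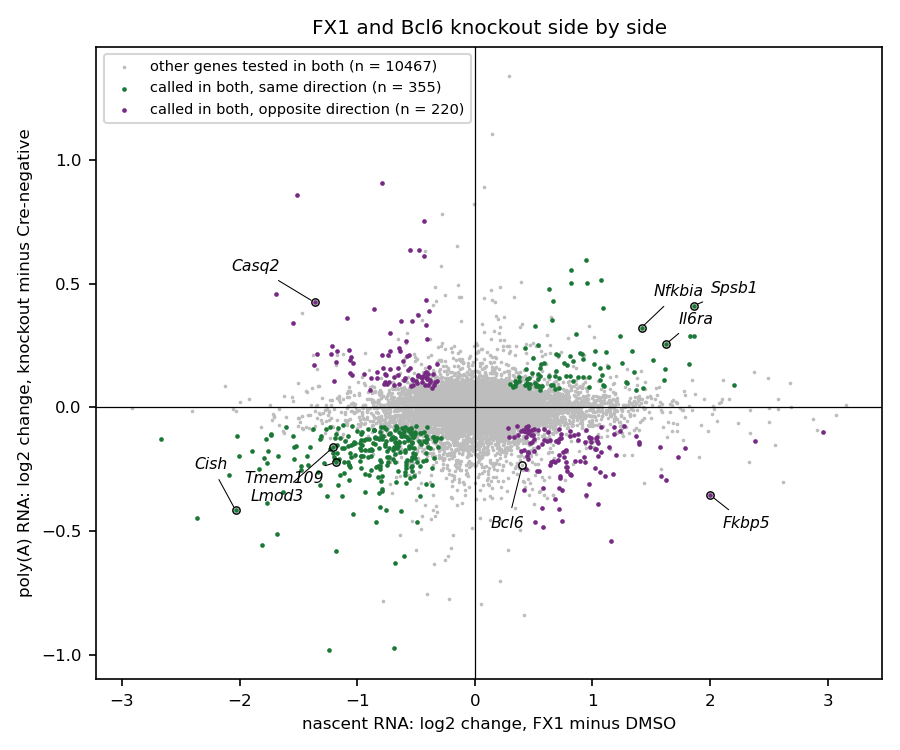
Each point is 1 of the 11042 genes tested in both tables, with the nascent log2 change, FX1 minus DMSO, on the x axis and the poly(A) log2 change, knockout minus Cre-negative, on the y axis. Green points (355) were called in both in the same direction and purple points (220) in opposite directions. The lower left quadrant holds the most shared calls, and Il6ra, Nfkbia and Spsb1 lie in the upper right.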

How the data were processed

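Nascent RNA was measured in 5 FX1 and 5 DMSO quadriceps libraries. The authors deposited 1 table of log2 values per gene, made with HOMER per the file headers: tags were counted over whole gene bodies with overlapping transcripts condensed, and the header names neither the transform nor a strand setting. Bowtie 1.2, STAR 2.4.0, DESeq2 1.14.1 and the mm10 build stand in the submitters' processing notes. The poly(A) tables hold log2 values from exon counts, per the file headers. The p-values and adjusted p-values in the authors' deposited table are quoted with that name. The BCL6 peak score is the authors' deposited value per peak.

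Genes with a mean log2 value of at least 5 over a table's libraries were fitted with limma 3.58.1 (trended variance, no covariates, R 4.3.3) on these values, Benjamini-Hochberg adjusted over all genes tested and called below 0.05, and the fit was tested on simulated data with 200 changed genes. Each knockout comparison was fitted on its own table. Gene lists are described by counts and medians. A peak was assigned to a gene when its centre lay within 1000 bp of the annotated start. The depth was 13.9 M to 32.7 M tags per library, and 0 per-sample columns of the tables lacked a sample.

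The genes and lists were chosen with earlier results of these data known. Named genes are 9 fixed genes, the 10 largest rises and 10 largest falls among called genes with a mean of at least 7 and groups without overlap, up to 3 called members per list with the smallest p, the 5 raised and 5 lowered genes with the highest peak scores, and the 5 raised and 5 lowered genes called in all comparisons with the smallest p. Symbols for microRNAs and small nucleolar RNAs were left out of the largest changes. Other list members are named for their role, after their values were seen. Alternatives were other filters, median centring, quantile normalization, a constant variance prior, weights per library, tag totals as a covariate, a replicate block, other peak distances and each library left out. Some genes these rules name are not reported here.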

Additional observations from a re-analysis of the deposited data

Results flagged for a closer look

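Across the 215 genes followed, from the text and the lists, 430 groups of 5 libraries were examined for a library far from the other 4, meaning that its gap to the nearest of them exceeded Dixon's 95% critical value of 0.71 times the range of the group. In 30 groups a library stood apart, 14 with FX1 and 16 with DMSO, and chance alone flags about 1 in 20 groups, here 21.5. FX1 replicate 3 was the library in 11 of them and DMSO replicate 4 in 10. FX1 replicate 3 lay above the other libraries of its group at a log2 value of 9.87 for H60b (others 8.30 to 8.54) and 12.15 for Raet1b (others 11.03 to 11.33). FX1 replicate 3 lay below the other libraries of its group at a log2 value of 5.69 for Socs2 (others 7.05 to 7.35), 9.20 for Mt2 (others 10.61 to 11.15), 7.55 for Esam (others 8.70 to 9.16), 10.64 for Flt1 (others 12.07 to 12.38), 8.53 for Mkx (others 9.64 to 9.94), 9.47 for Fez2 (others 9.69 to 9.72), 9.59 for Osmr (others 10.84 to 11.10), 10.12 for Mt1 (others 11.68 to 12.29) and 4.96 for Id2 (others 5.98 to 6.25). FX1 replicate 1 lay below the other libraries of its group at a log2 value of 8.88 for Tpi1 (others 9.58 to 9.75), 11.32 for Abcc9 (others 11.70 to 11.85) and 5.67 for 6430571L13Rik (others 6.43 to 6.70). DMSO replicate 4 lay above the other libraries of its group at a log2 value of 10.74 for Sec14l5 (others 9.53 to 9.67) and 13.15 for Ky (others 12.51 to 12.64). DMSO replicate 4 lay below the other libraries of its group at a log2 value of 11.13 for Atp5b (others 11.48 to 11.54), 7.39 for Zfp36 (others 8.06 to 8.27), 9.56 for Hspd1 (others 9.92 to 10.03), 9.35 for Trp53inp1 (others 10.04 to 10.24), 11.76 for Nr3c1 (others 12.10 to 12.19), 11.76 for Tsc22d3 (others 12.24 to 12.35), 11.75 for Nr4a1 (others 12.23 to 12.42) and 6.72 for Acsl5 (others 7.002 to 7.10). DMSO replicate 1 lay above the other libraries of its group at a log2 value of 10.35 for Dbp (others 9.11 to 9.36). DMSO replicate 2 lay below the other libraries of its group at a log2 value of 5.53 for Stc2 (others 5.70 to 5.75). DMSO replicate 3 lay above the other libraries of its group at a log2 value of 10.33 for Gm36173 (others 8.62 to 9.02) and 7.26 for Vegfb (others 6.91 to 6.99). DMSO replicate 3 lay below the other libraries of its group at a log2 value of 9.90 for Myh7 (others 11.09 to 11.31). DMSO replicate 5 lay above the other libraries of its group at a log2 value of 10.11 for Bcl2l1 (others 9.85 to 9.89). For Socs2, FX1 replicate 3 also lay below all DMSO libraries, and the size of the FX1 change without it stands beside the gene in the results. DMSO replicate 4 held the most tags of the 10 libraries, 32.7 M, and FX1 replicate 3 the fewest, 13.9 M; the part of depth in these values was not tested.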

How the results depend on the processing

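No gene called with FX1 changed sign under any alternative fit. Under other filters, the constant variance prior and the replicate block the log2 changes stay the same, so no sign could change there. Counts of raised and lowered genes, 1619 and 1459, were 3476 and 3463 with weights per library, where FX1 replicate 3 had the lowest weight, 1075 and 908 with tag totals as a covariate, and 1134 to 2257 and 1006 to 2051 when 1 library was left out. Replicate numbers did not pair the libraries: same-numbered FX1 and DMSO libraries correlated in their deviations from group means at -0.435, -0.058, -0.351, -0.253 and 0.179, and none correlated best with its own number. With the replicate block 992 genes were raised and 856 lowered, and the overlap with genes raised in knockout against oil was 96. Genes raised in both experiments, 95 against Cre-negative muscle and 155 against oil, numbered 57 against Cre-negative muscle with no filter, 188 and 319 with weights, 62 and 100 with the tag covariate, and 66 to 126 and 107 to 215 with a library left out. Genes lowered in both, 260 and 356, numbered 555 and 732 with weights and 201 to 357 and 270 to 484 with a library left out. Within 100 bp of a peak 11.7% of genes were lowered, against 14.0% within 1000 bp. Knockout counts with a library left out were 626 to 700 raised and 1038 to 1200 lowered against Cre-negative muscle, and 1011 to 1224 and 1487 to 1757 against oil. A median above 0 was found for 24 of 42 lists, and for 22 to 26 with a library left out. The change of Mstn, which did not pass, reversed to -0.22 with weights and ranged over -0.026 to 0.41 with a library left out, lowest without FX1 replicate 3. Among 215 genes followed across all fits, chosen from the text and the lists, 48 lost their call without some library and 62 under some other alternative. The cause of these shifts was not tested. The log2 values carry no tag count per gene, so the precision that depth gives to a single gene is unknown.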
